A study of Mus musculus with 6 samples.

Results

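The genes described here are 34 antiviral genes that type I interferon is known to induce. They were found by symbol on 34 of the 54532 rows of the deposited expression table. The list was chosen with earlier results of these data known. RNA sequencing of polyadenylated transcripts was done on the CD45-negative fraction of tumours that MC38 cells, from a mouse colon carcinoma, had formed under the skin of wild-type C57BL/6 mice. The tested libraries came from tumours of MC38 cells in which Npm1, the gene for the nucleolar chaperone nucleophosmin, had been knocked out with CRISPR/Cas9 (n = 3). The comparison libraries came from tumours of MC38 cells with the wild-type gene (n = 3). Cells of both groups grew in hosts with an intact immune system, and leukocytes were depleted with beads against CD45, the surface protein that leukocytes share. The labels give neither the number of knockout clones, the age of the mice, nor whether replicates were separate animals. Each p-value therefore covers only the spread among 3 and 3 libraries, which may be technical.

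Type I interferons bind the receptor IFNAR, whose kinases JAK1 and TYK2 phosphorylate STAT2 and other signalling proteins. STAT2 and IRF9 are parts of ISGF3, a complex that binds the interferon-stimulated response element in the promoters of target genes. The products of the targets degrade viral RNA, block its translation, hold virions at the membrane or modify proteins with ISG15, and in tumours they are commonly read as a sign of interferon reaching the cells. Interferon gamma acts through its own receptor on a partly shared set of genes.

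The core of the response element was looked for in the promoters. RefSeq promoters (GRCm38.p6, 250 bases before to 50 after the start) were found for 26 of the 34 genes. The core motif, GAAA followed by any 2 bases and GAAA again, was searched on both strands, so that it also reads TTTC, any 2 bases and TTTC, with overlapping matches allowed. It was present in 11 of these 26 genes (42.3%), against 3.99% of all 27025 genes in the promoter table, and the other 15 had no match. The share was 48.8% for other type I stimulated genes and 48.0% for interferon gamma induced genes. The whole promoters of Isg15 and Ifit1 are printed because they carry several matches, with the matching bases in capitals. Isg15 lies on the minus strand at chr4:156200769-156201068 and has 3 overlapping matches, the first at -78 to -69 from the start. Ifit1 lies on the plus strand at chr19:34640639-34640938 and has matches at -104 to -95 and -85 to -76.
Isg15: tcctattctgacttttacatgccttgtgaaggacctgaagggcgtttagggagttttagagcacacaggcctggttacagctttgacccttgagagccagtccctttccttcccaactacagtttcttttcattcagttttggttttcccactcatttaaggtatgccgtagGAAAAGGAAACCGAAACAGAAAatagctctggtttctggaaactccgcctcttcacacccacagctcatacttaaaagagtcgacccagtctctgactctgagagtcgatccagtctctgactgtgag
Ifit1: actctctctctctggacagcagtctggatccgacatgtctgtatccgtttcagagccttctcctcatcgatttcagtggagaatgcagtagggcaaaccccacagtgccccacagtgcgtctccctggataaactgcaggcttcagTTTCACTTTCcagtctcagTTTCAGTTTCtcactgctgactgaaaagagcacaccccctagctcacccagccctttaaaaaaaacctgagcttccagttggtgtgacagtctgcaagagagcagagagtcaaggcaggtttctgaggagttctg

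Shorter stretches around the matches show how alike the copies within a family are. The stretches of Ifit3 (chr19:34583363-34583426, plus strand) and Ifit3b (chr19:34607759-34607822, plus strand) are printed beside those of Oas1a (chr5:120907520-120907555, minus strand) and Oas1g (chr5:120887606-120887641, minus strand). Bst2 (chr8:71537577-71537612, minus strand), the most abundant of the genes, has 2 overlapping matches, and Stat2 (chr10:128270266-128270295, plus strand), a part of ISGF3 itself, has 1.
Ifit3: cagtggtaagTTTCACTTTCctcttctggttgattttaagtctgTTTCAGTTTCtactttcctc
Ifit3b: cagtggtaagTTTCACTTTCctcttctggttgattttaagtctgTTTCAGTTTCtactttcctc
Oas1a: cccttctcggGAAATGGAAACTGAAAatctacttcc
Oas1g: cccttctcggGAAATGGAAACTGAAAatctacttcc
Bst2: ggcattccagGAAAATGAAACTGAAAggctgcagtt
Stat2: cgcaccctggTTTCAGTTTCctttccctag
The other matches were in Oas3, Eif2ak2 and Rsad2. Among the 15 genes without a match were Herc6, Ifit2, Isg20 and Parp12, and also Irf7, Irf9, Cmpk2 and Oasl2. Matches outside the searched promoter window would be missed. The printed stretches of Ifit3 and Ifit3b are identical, as are those of Oas1a and Oas1g.

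Recovered fragments ran from 17333843 to 18662688 per library in the knockout and from 16917778 to 18255574 in wild type. Npm1 itself was at 191, 159 and 128 FPKM in the knockout libraries, against 234, 169 and 195 FPKM in wild type. FPKM is the fragment count scaled by gene length and by a total for the library. The total implied by the values ran from 0.96 times the recovered fragments in wild-type replicate 3 to 1.04 times in wild-type replicate 1. The reason was not tested. The groups overlapped for Npm1 (log2 difference -0.33, SE 0.197, limma adjusted p = 0.268). With a trend of transcript length and GC content removed, Npm1 was lower in the knockout by a log2 difference of -0.75 (limma adjusted p = 0.0459), so the check of the labels by this transcript depends on that correction. Of 10 epithelial markers 1 was tested, Lgals4, with means of 1.15 and 1.53 FPKM in knockout and wild type. Epcam, Krt18 and Krt20, which define epithelial cells, were at or near 0 in a line of colon epithelial origin. Of 20 leukocyte markers 2 reached a mean of 1 FPKM. Lyz2 averaged 2.48 ± 0.884 and 3.16 ± 2.24 FPKM in knockout and wild type (SD, n = 3 each), and Cd68 averaged 1.71 ± 0.352 and 1.36 ± 0.347 FPKM. Cd3e, Ms4a1, Siglech and S100a9 were among those at 0 in every library. For Ptprc, the CD45 gene itself, each library held 0 to 4 fragments.

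The 34 antiviral genes were detected in every library, and for 32 of them knockout and wild-type libraries overlapped. Of the 32 whose mean over the 6 libraries reached 1 FPKM, 0 passed in either direction in limma at an adjusted p under 0.05, where 5.91% of all 11287 tested genes were called higher and 8.3% lower in the knockout. At an unadjusted p under 0.05 there were 4 of 32, where 33.1% of all tested genes reached it. The median difference over the 32 genes was -0.05 on the log2(FPKM + 1) scale, knockout minus wild type, beside 0.02 over all tested genes. Values of 14 genes were above 0 and of 18 below 0, and they ran from -0.57 to 0.63. In bulk samples fewer responding cells and less RNA per cell cannot be told apart.

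These differences were less precisely measured than those of most genes. The median standard error was 0.248 for the 32 genes and 0.169 for all tested genes, and the 95% interval of a difference reached a median of 0.552 to each side. Herc6 came nearest to the threshold (limma adjusted p = 0.0507). A general trend of difference with transcript length and GC content runs through these libraries. With that trend removed again 0 of 32 passed, where 1.76% of all genes did, and the median was -0.17 with 12 genes above 0 and 20 below.

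**Figure D1:**
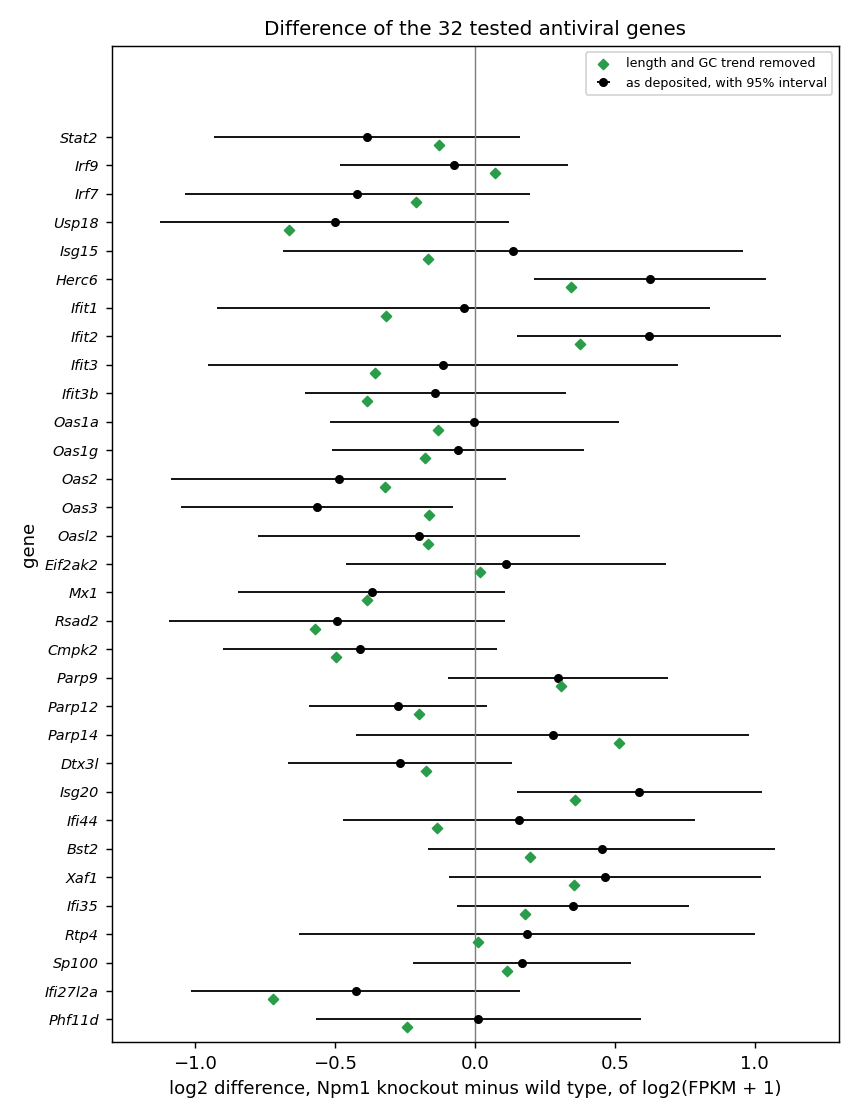
Difference between Npm1 knockout and wild type for each of the 32 tested antiviral genes on the log2(FPKM + 1) scale (x axis), as black points with limma 95% intervals over 3 libraries per group, and as green diamonds with the length and GC trend removed. Intervals of 28 genes include 0, and those of Herc6, Ifit2, Isg20 and Oas3 do not, although none of the 4 passed after adjustment over all genes.

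Groups that did not overlap were found for 2 of the 34 genes, 1 in each direction, where 16.0% of all tested genes lay wholly higher and 19.6% wholly lower in the knockout. Herc6 (ENSMUSG00000029798, chromosome 6, 57581000 to 57664632, GRCm38), the mouse ligase that attaches ISG15 to proteins, was at 1.49, 1.84 and 1.83 FPKM in the knockout libraries, against 1.22, 0.474 and 0.663 FPKM in wild type. Every knockout library was above every wild-type one, at 252 to 320 fragments against 76 to 216. The means were 1.72 ± 0.204 and 0.787 ± 0.39 FPKM (SD, n = 3 each), and the log2 difference was 0.63 (SE 0.187, 95% interval 0.21 to 1.04). Herc6 passed in limma-voom on the recovered fragments (log2 1.24, limma adjusted p = 0.0317) and was at 0.34 (limma adjusted p = 0.129) with the length and GC trend removed. It shares 23.8% of its 50-base windows with Gm45193, a transcript inside it that is listed at 0, so its count is uncertain.

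Parp12 (ENSMUSG00000038507, chromosome 6, 39086410 to 39118349), an ADP-ribosyltransferase that acts against several RNA viruses, lay wholly lower in the knockout. It was at 17.9, 23.0 and 21.0 FPKM in the knockout libraries, against 25.7, 24.2 and 25.3 FPKM in wild type. Parp12 was also the gene with the smallest spread among wild-type libraries, 1.07-fold between the highest and the lowest. Its log2 difference was -0.28 (SE 0.143, limma adjusted p = 0.207). Removing the trend gave -0.20.

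**Figure D2:**
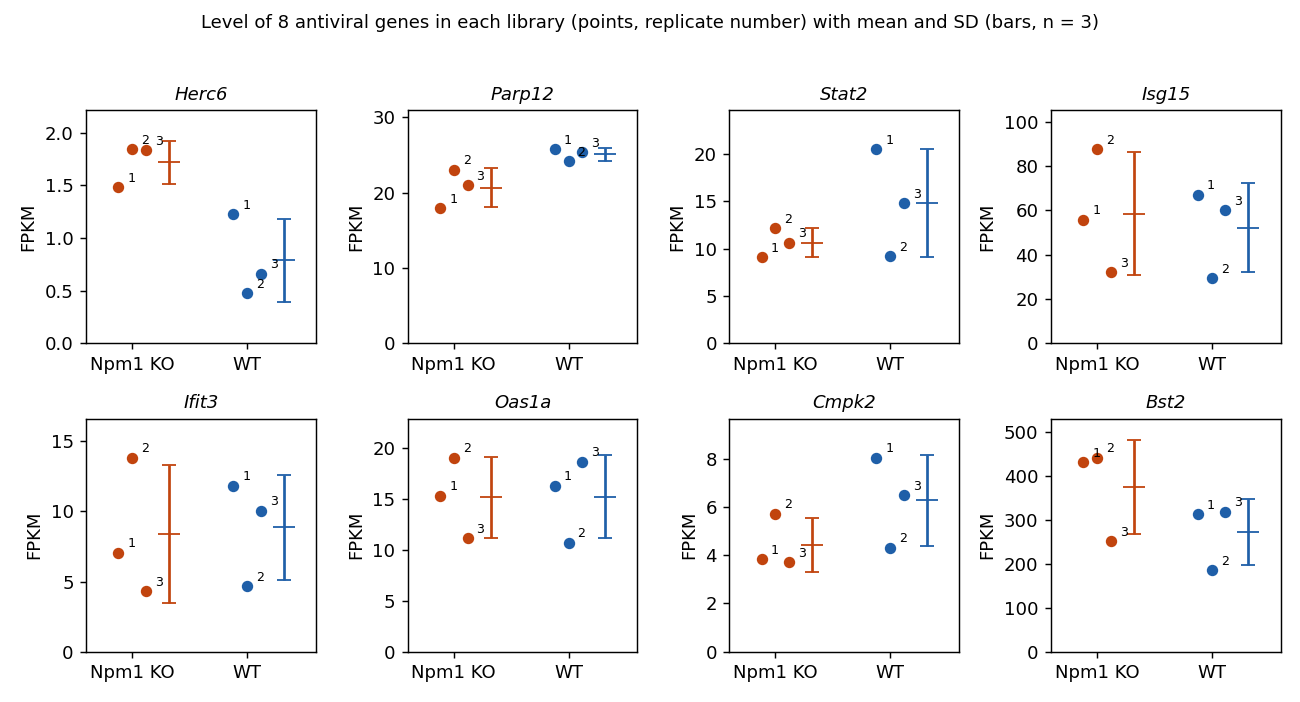
Level in FPKM (y axis, from 0) of 8 antiviral genes in each Npm1 knockout library (left) and wild-type library (right), as points with the replicate number, and as mean and SD over 3 libraries. The points of the groups are apart for Herc6 and Parp12 and overlap for the other 6, where wild-type replicate 2 is the lowest wild-type point.

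The factors that carry the signal were measured at moderate levels. Stat2, a subunit of ISGF3, was at 9.12, 12.1 and 10.6 FPKM in the knockout, against 20.5, 9.17 and 14.8 FPKM in wild type. Wild-type replicate 1 stood high and wild-type replicate 2 lay inside the knockout range. The log2 difference of Stat2 was -0.39 (SE 0.245, limma adjusted p = 0.295). Irf9, the DNA-binding subunit of ISGF3, averaged 11.9 ± 1.28 and 12.8 ± 2.94 FPKM in knockout and wild type (SD, n = 3 each). Irf7, which amplifies type I interferon production, averaged 7.87 ± 2.89 and 10.9 ± 3.72 FPKM. Usp18, the protease that removes ISG15 and restrains the receptor, averaged 3.02 ± 1.48 and 4.63 ± 1.6 FPKM. All 4 differences were below 0 (-0.50 to -0.08) and the smallest limma adjusted p was 0.238, but with the trend removed Irf9 was above 0 (0.07). Irf7 overlaps Phrf1 on the opposite strand and Irf9 overlaps Rnf31, both expressed, so some fragments may be shared.

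Isg15, the ubiquitin-like modifier, was at 55.7, 87.6 and 32.2 FPKM in the knockout libraries, against 67.0, 29.4 and 60.0 FPKM in wild type. The ranges of the groups overlapped widely, with knockout replicate 2 highest and wild-type replicate 2 lowest. The means were 58.5 ± 27.8 and 52.1 ± 20.02 FPKM (SD, n = 3 each). This gave a log2 difference of 0.13 (SE 0.37, 95% interval -0.69 to 0.96), which was -0.17 with the trend removed.

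The IFIT proteins bind foreign or uncapped RNA and block its translation, and their 4 genes lie together on chromosome 19 between 34550694 and 34650009. Ifit3 was the highest of them, at 7.06, 13.8 and 4.30 FPKM in the knockout, against 11.8, 4.69 and 10.1 FPKM in wild type. Libraries of a group differed by 3.22-fold in the knockout and 2.53-fold in wild type, and the group difference was -0.12 (SE 0.378, limma adjusted p = 0.852). Ifit1 averaged 4.51 ± 1.71 and 5.26 ± 3.70 FPKM in knockout and wild type, and its 5.01-fold spread among wild-type libraries was the widest of the 34 genes. Ifit3b averaged 0.912 ± 0.36 and 1.11 ± 0.42 FPKM. Ifit3 shares 51.2% of its 50-base windows with other genes, chiefly Ifit3b, so the split of fragments between the 2 copies is uncertain.

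Ifit2 was the member of the family with a difference above 0, and its difference from the other IFIT genes was not tested. It was at 2.79, 4.48 and 4.46 FPKM in the knockout, against 3.07, 1.73 and 1.8 FPKM in wild type. Wild-type replicate 1 lay above knockout replicate 1, so the groups overlapped. The log2 difference was 0.62 (limma adjusted p = 0.0741, SE 0.212, 95% interval 0.15 to 1.09), and with the trend removed it was 0.38 (limma adjusted p = 0.205).

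Active oligoadenylate synthetases sense double-stranded RNA and activate the nuclease RNase L. All 6 genes of the OAS family here, with the OAS-like Oasl1 and Oasl2 among them, are on chromosome 5. Oas1a, the highest of them, was at 15.3, 19.0 and 11.1 FPKM in the knockout, against 16.3, 10.7 and 18.6 FPKM in wild type, with equal means of 15.2 FPKM. Oas1g averaged 2.99 ± 0.517 and 3.22 ± 1.01 FPKM in knockout and wild type, and shares 54.7% of its 50-base windows with other genes, chiefly Oas1a and Oas1b, so these copies are uncertain. Oas2 averaged 3.30 ± 0.727 and 5.32 ± 2.47 FPKM, and Oas3 averaged 2.91 ± 0.728 and 4.87 ± 1.59 FPKM. Oas3 had a difference of -0.57 (SE 0.218, limma adjusted p = 0.103), which was -0.16 with the trend removed. Oasl2 averaged 9.22 ± 3.01 and 10.8 ± 3.61 FPKM. Oasl1 averaged 0.475 ± 0.229 and 1.31 ± 0.707 FPKM and was below the filter, at 11 to 92 fragments per library. Eif2ak2, which encodes the RNA-activated kinase PKR, averaged 4.26 ± 0.852 and 4.08 ± 2.0 FPKM. The 6 tested genes of this group had a median difference of -0.13.

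The MX GTPases trap viral nucleoproteins, and many inbred mouse strains, C57BL/6 among them, carry a defective Mx1. Mx1 was at 1.23, 1.48 and 1.14 FPKM in the knockout, against 3.03, 1.24 and 1.82 FPKM in wild type. Wild-type replicates 1 and 3 were above all knockout libraries and wild-type replicate 2 lay among them, and the difference was -0.37 (SE 0.215, limma adjusted p = 0.256). Mx2 averaged 0.755 ± 0.0313 and 0.951 ± 0.589 FPKM in knockout and wild type and was below the filter.

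Rsad2 encodes viperin, which makes a chain-terminating nucleotide, and its neighbour Cmpk2 encodes the kinase that supplies the substrate. Cmpk2 was at 3.84, 5.72 and 3.70 FPKM in the knockout, against 8.05, 4.30 and 6.49 FPKM in wild type. The groups overlapped through wild-type replicate 2, and the difference was -0.41 (SE 0.221, limma adjusted p = 0.22). Rsad2 averaged 0.877 ± 0.463 and 1.70 ± 0.965 FPKM, a difference of -0.49 (limma adjusted p = 0.229).

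Parp9 and Dtx3l encode partners of a complex of an ADP-ribosyltransferase and a ubiquitin ligase, and their genes overlap on opposite strands. Parp9 averaged 14.1 ± 1.26 and 11.5 ± 2.77 FPKM in knockout and wild type, and Dtx3l averaged 8.38 ± 1.13 and 10.4 ± 2.42 FPKM. Parp14, another ADP-ribosyltransferase, averaged 8.90 ± 2.01 and 7.80 ± 4.62 FPKM. Differences of the 4 genes of this group, Parp12 included, ran from -0.28 to 0.30.

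Bst2, or tetherin, which holds budding virions at the cell surface, was the most abundant of the 34 genes. It was at 431, 442 and 251 FPKM in the knockout libraries, against 314, 186 and 318 FPKM in wild type. Knockout replicates 1 and 2 were above all wild-type libraries and knockout replicate 3 was not. The means were 375 ± 107 and 273 ± 75 FPKM (SD, n = 3 each). The difference on the log2 scale was 0.45 (limma adjusted p = 0.28, SE 0.279, 95% interval -0.17 to 1.07).

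Of the 9 effectors outside these families, 8 were above 0 and 1 below, with a median difference of 0.19. With the trend removed 6 were above 0 and 3 below (Ifi27l2a, Phf11d and Ifi44), with a median of 0.11. Isg20, an RNA exonuclease, was at 15.4, 13.7 and 9.99 FPKM in the knockout, against 7.76, 6.80 and 10.4 FPKM in wild type. Wild-type replicate 3 lay just above knockout replicate 3, and the difference was 0.59 (SE 0.197, limma adjusted p = 0.0705). Xaf1, a proapoptotic protein, averaged 10.5 ± 3.31 and 7.27 ± 2.0 FPKM in knockout and wild type. Ifi35, a partner of NMI, averaged 30.7 ± 6.17 and 23.7 ± 3.63 FPKM. Sp100, a nuclear body protein, averaged 7.64 ± 0.632 and 6.80 ± 1.68 FPKM. Rtp4 averaged 19.5 ± 5.38 and 18.5 ± 9.95 FPKM, Ifi44 averaged 1.5 ± 0.554 and 1.33 ± 0.965 FPKM and Phf11d averaged 2.36 ± 0.615 and 2.44 ± 1.17 FPKM. Ifi27l2a, a small hydrophobic protein, was the exception, at 72.6 ± 18.1 and 99.8 ± 32 FPKM (log2 -0.43, limma adjusted p = 0.284). Oas3, Ifit2 and Isg20 were set beside Herc6 after their values were seen, as the other genes with an unadjusted p under 0.05.

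A clear feature of these genes, not shown to be particular to them, was how far libraries of the same group stood apart. Interferon gamma induced genes also differed between wild-type libraries. Their median log2 deviations from the gene's mean over 6 libraries were 0.06, -0.66 and -0.32 in wild-type replicates 1 to 3. For the antiviral genes, highest and lowest knockout library differed by a median of 1.61-fold over the 34 genes, against 1.34-fold over all tested genes. Wild-type libraries differed by 2.04-fold against 1.35-fold. The knockout range was wider than the group difference for 24 of 34 genes (60.3% of all tested genes), and the wild-type range was for 30 of 34 (62.4% of all tested genes).

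The libraries also kept an order. Knockout replicate 2 was the highest knockout library for 27 of 34 genes, where it was for 24.6% of all tested genes. Knockout replicate 3 was lowest of its group for 24 of 34 (39.9% of all tested genes) and highest for 4 (Eif2ak2, Parp9, Parp14 and Dtx3l). Wild-type replicate 2 was the lowest wild-type library for 34 of 34, where it was for 29.5% of all tested genes, and wild-type replicate 1 was the highest for 28 of 34, where it was for 34.3%. For 16 of 34 genes both orders held at once (knockout replicates 2, 1 and 3 from high to low, and wild-type replicates 1, 3 and 2), where 1.44% of all tested genes showed both. These patterns were picked after the values were seen, the genes are not independent of each other, and no test was made.

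**Figure D3:**
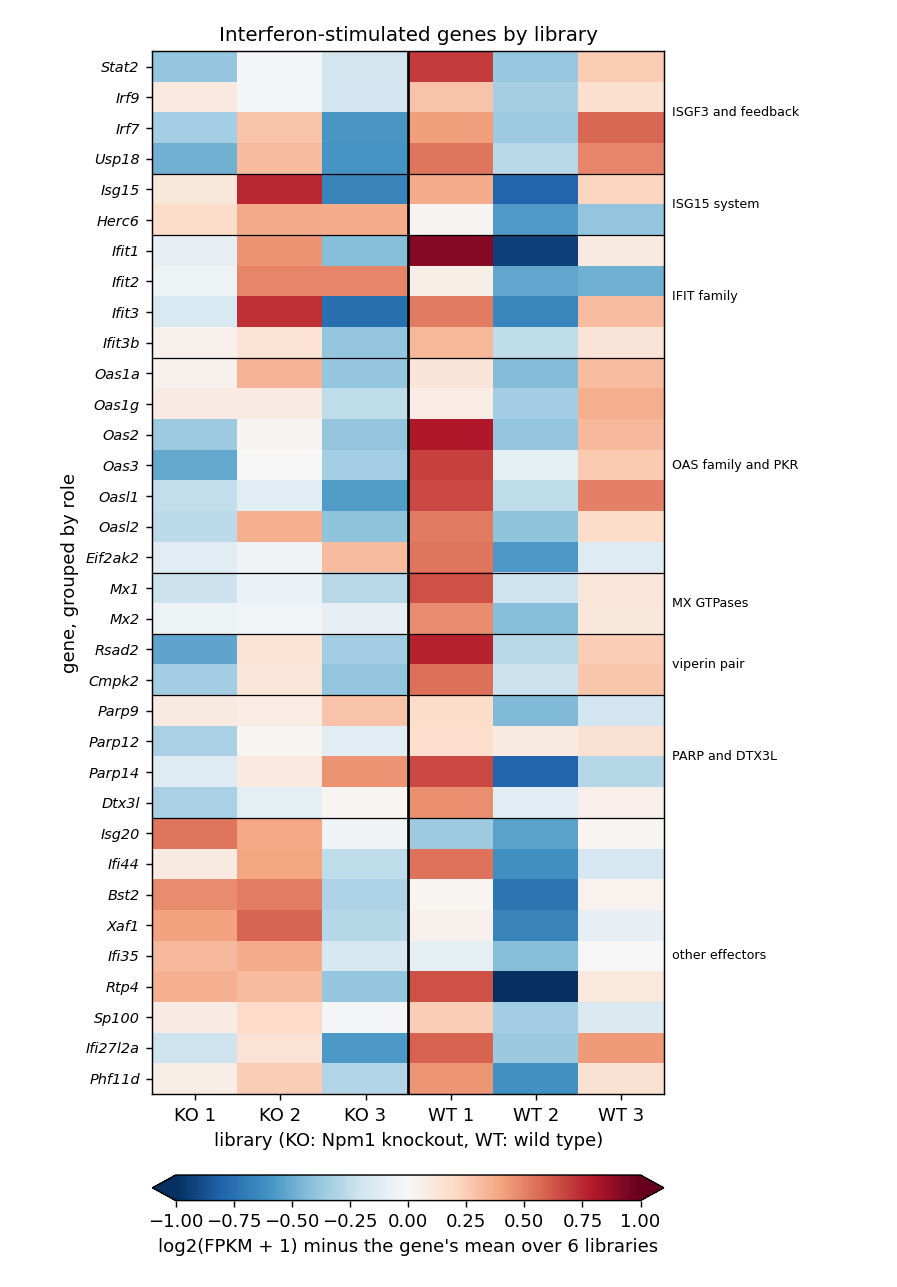
Deviation of log2(FPKM + 1) from each gene's mean over the 6 libraries (colour) for the 34 antiviral genes (rows, grouped by role) in 3 Npm1 knockout libraries (left) and 3 wild-type libraries (right). Wild-type replicate 1 is mostly red, wild-type replicate 2 mostly blue and knockout replicate 3 mostly blue, so colour follows single libraries more than the groups.

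Taken as a median over the 32 tested genes, the deviation from each gene's mean was -0.06, 0.22 and -0.29 in knockout replicates 1 to 3, against 0.45, -0.41 and 0.14 in wild-type replicates 1 to 3. For all tested genes that median lay between -0.02 and 0.01 in each library. With the length and GC trend removed it was -0.16, 0.16 and -0.28 in the knockout, against 0.44, -0.44 and 0.14 in wild type, so the order was the same. The order was not particular to these genes. As deposited, the 48 other type I stimulated genes had smaller medians in the same order. They were 0.016, 0.145 and -0.065 in knockout replicates 1 to 3, against 0.101, -0.209 and 0.054 in wild-type replicates 1 to 3. Interferon gamma induced genes kept the wild-type order only. Summed levels of the 20 leukocyte markers were 5.03 to 6.09 FPKM in the knockout and 3.78 to 9.11 FPKM in wild type, lowest in wild-type replicate 2. The sum was highest in wild-type replicate 3, where Lyz2 alone was at 5.71 FPKM. Summed levels of 7 endothelial markers, none of which was tested, were 0.939 to 1.8 FPKM in the knockout and 1.99 to 4.97 FPKM in wild type, highest in wild-type replicate 2. Of 5 markers of plasmacytoid dendritic cells, which make interferon, Siglech and Klk1 were at 0 in every library and Ccr9 had at most 1 fragment in a library. Tcf4 averaged 1.6 ± 0.381 and 1.37 ± 0.419 FPKM in knockout and wild type (SD, n = 3 each), and the fifth is Bst2, itself one of the antiviral genes. Summed levels of 5 red blood cell markers were 39.6, 81.2 and 12.8 FPKM in knockout replicates 1 to 3, against 22.5, 8.01 and 1.46 FPKM in wild-type replicates 1 to 3, and those of 10 fibroblast markers were 1539 to 1724 FPKM in the knockout and 1166 to 1741 FPKM in wild type, mostly from Col3a1. Of the 9 tested fibroblast markers 2 rose and 1 fell, where 5.91% of all tested genes were called higher and 8.3% lower. Dpt averaged 111 ± 30.7 and 23.1 ± 4.37 FPKM in knockout and wild type (limma adjusted p = 0.00289), Dcn 202 ± 84.3 and 78.5 ± 10.4 FPKM (limma adjusted p = 0.018), and Col1a1 18.6 ± 10.7 and 69.1 ± 29.4 FPKM (limma adjusted p = 0.0228). With the length and GC trend removed 1 of the 9 rose (Dpt, limma adjusted p = 0.00933) and 0 fell, where 1.76% of all genes passed. Dcn (limma adjusted p = 0.0711) and Col1a1 (log2 -1.15, limma adjusted p = 0.149) no longer passed. The part of these cells in the pattern was not tested.

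The wild-type spread was wide both with and without the motif in the promoter window. It was 2.25-fold (median) for the 11 genes with the motif, 1.78-fold for the 15 without and 2.59-fold for the 8 with no promoter in the table. Median differences between knockout and wild type were -0.06, 0.08 and -0.37 in the same order, over 11, 14 and 7 tested genes.

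**Figure D4:**
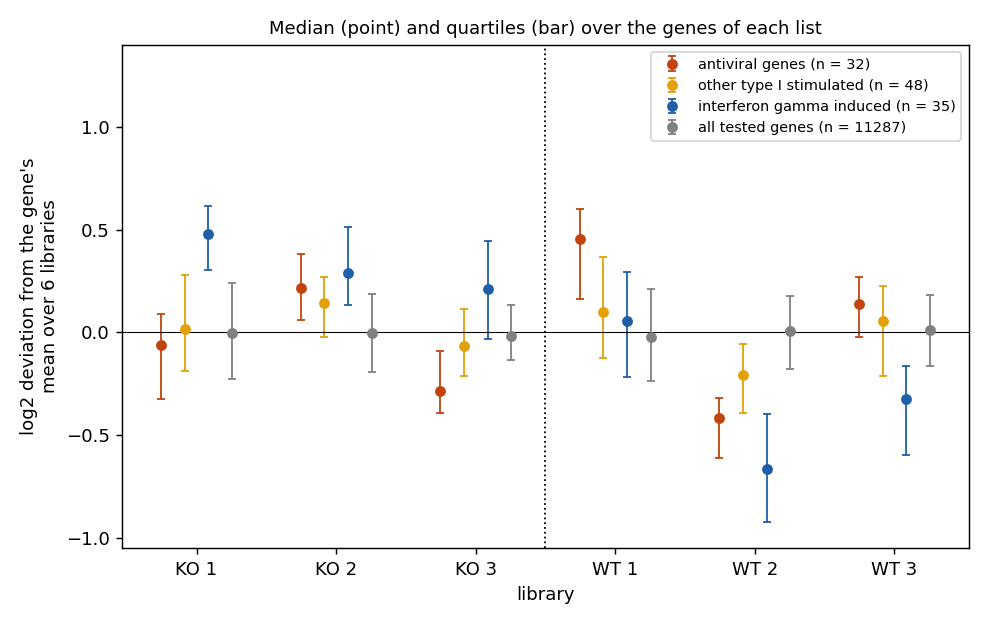
Median (point) and quartiles (bar) of the log2 deviation from the gene's mean over 6 libraries, for the antiviral genes, other type I stimulated genes, interferon gamma induced genes and all tested genes (colours), in 3 Npm1 knockout libraries (left) and 3 wild-type libraries (right). Antiviral genes are highest in wild-type replicate 1 (0.45), while interferon gamma induced genes have all 3 knockout medians above all 3 wild-type medians.

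Because single libraries stood apart, the median difference depended on which were kept. Without knockout replicates 1, 2 and 3 in turn it was -0.05, -0.19 and 0.09, and without wild-type replicates 1, 2 and 3 in turn it was 0.09, -0.28 and 0.04. Without wild-type replicate 2, 8 of 32 genes were above 0, and without wild-type replicate 1, 19 were. Without knockout replicate 3, Ifi35, Isg20 and Xaf1 passed as higher. Without wild-type replicate 1, Ifit2 and Herc6 did. Without wild-type replicate 2, Oas2 passed as lower (log2 -0.80, limma adjusted p = 0.0466). With limma array weights, which gave knockout replicate 2 a weight of 6.81, 9 genes passed as higher: Bst2, Ifi35, Parp9, Isg20, Xaf1, Sp100, Ifit2, Ifi44 and Herc6.

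**Figure D5:**
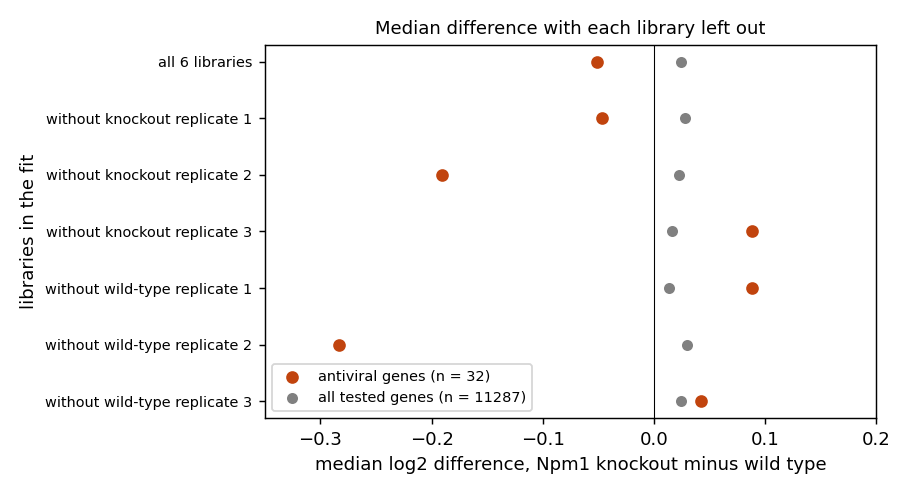
Median log2 difference, Npm1 knockout minus wild type (x axis), over the 32 tested antiviral genes (red) and all 11287 tested genes (grey), with all 6 libraries and with each library left out in turn (rows). The red points run from -0.28 to 0.09 while the grey points stay near 0.

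Upstream of these genes, interferon ligands were close to undetectable in this CD45-negative fraction. Leukocytes were depleted before sequencing, so ligand transcripts of the depleted cells are not covered. Of 21 ligand genes, Ifnb1, Ifng and the interferon alpha genes among them, 18 were at 0 in every library. Ifnz had 3, 6 and 0 fragments in knockout replicates 1 to 3, Ifna13 had 2 and Ifnk 1 in knockout replicate 3, and wild-type libraries had 0 for all 21. A count of 0 allows up to 3 fragments per library, by counting error alone, and no ligand gene was abundant enough to be tested.

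Of 21 receptor and signalling genes tested, not all of them reported here, 2 fell. That count is close to the share of all tested genes called lower, 8.3%. Socs3, a feedback inhibitor, fell by 0.68 (limma adjusted p = 0.0334) and the phosphatase gene Ptpn11 fell by 0.61 (limma adjusted p = 0.0334). Neither passed once the trend was removed. The receptor chains Ifnar1 (-0.30, limma adjusted p = 0.17) and Ifnar2 (0.14, limma adjusted p = 0.66) and the kinases Jak1 (-0.25, limma adjusted p = 0.308) and Tyk2 (-0.34, limma adjusted p = 0.165) did not pass.

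Of 48 other type I stimulated genes tested, 6 rose and 7 fell, with a median of 0.11, or 0.00 with the trend removed, where 1 rose and 1 fell. Of all tested genes 5.91% were called higher and 8.3% lower, and 1.76% either way with the trend removed. Nmi (0.85), Gm4951 (1.19), Zbp1, a sensor of left-handed nucleic acid (1.07), and Sp140 (0.71) rose, at limma adjusted p of 0.0152, 0.0171, 0.0184 and 0.0201. Adar, an RNA editing enzyme (-0.76), Rnf213 (-0.96), Trim25, a ubiquitin ligase (-0.78), and Helz2 (-0.90) fell, at limma adjusted p of 0.0222, 0.0339, 0.0374 and 0.0375. With the trend removed Ogfr passed as higher and Ifitm1, a restriction factor at the membrane, as lower. Slfn2 also fell (log2 -1.74, limma adjusted p = 0.0444). After the length and GC correction its difference was -1.93 and no longer passed (limma adjusted p = 0.088). Its levels were 9.74, 8.31 and 5.89 FPKM in the knockout, against 53.7, 9.69 and 42.8 FPKM in wild-type replicates 1 to 3. These repeated the wild-type pattern, and knockout replicate 1 lay just above wild-type replicate 2, so the groups overlapped. Slfn2 is named for that spread, seen in the data.

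The interferon gamma induced genes gave another picture in the same libraries. Of 35 tested, 14 rose and 0 fell, with a median of 0.71, or 0.59 with the trend removed, where 3 rose. Differences of 32 were above 0 and of 3 below. The shares over all tested genes were 5.91% higher and 8.3% lower, and 1.76% either way with the trend removed. Cxcl9, a chemokine that draws T cells, was at 56.7, 69.7 and 50.5 FPKM in the knockout, against 29.8, 19.8 and 23.3 FPKM in wild type (log2 1.25, limma adjusted p = 0.0111). Their median deviations were 0.48, 0.29 and 0.21 in knockout replicates 1 to 3, against 0.06, -0.66 and -0.32 in wild-type replicates 1 to 3. Wild-type replicate 2 was thus low for both sets, with 35 of 35 of these genes and 31 of 32 antiviral genes below their own mean there. Whether the 2 sets differ in their response was not tested.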

How the data were processed

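The authors deposited one table of FPKM values per gene for 6 libraries. Per the submitters' processing notes, the tools were DESeq2 1.20.0, featureCounts 1.5.0-p3, HISAT2 2.0.5 and CASAVA 1.8, used with builds GRCm38 and mm10, in roles that are not stated, and the strand setting is not given in the sources used here. The deposited FPKM values are whole multiples of 1 fragment's value, so fragment counts were recovered (100% of values whole within 0.001). Values were analysed as log2(FPKM + 1), which understates changes of low genes, for the 11287 genes averaging 1 FPKM or more, with limma 3.58.1 (two-sided moderated test, mean trend, Benjamini-Hochberg adjustment over all tested genes, threshold 0.05). The length and GC trend was fitted with mgcv 1.9.3 as a smooth surface over transcript length and GC content and subtracted. The test was also run on simulated data. The genes and lists were chosen with earlier results of these data known. Values are printed per library for genes that passed, genes whose groups did not overlap and the highest gene of each role, and other genes singled out were chosen after their values were seen. Intervals of differences are limma's, from the spread among libraries, and the floor of 3 fragments covers counting error only. Alternatives were other pseudocounts, filters, scalings, weights, voom, TPM, the replicate block and each library left out. Some genes are not reported here.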

Additional observations from a re-analysis of the deposited data

How the results depend on the processing

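The median difference of the antiviral genes (-0.05) moved by less than the spread between libraries (SD 0.358) under every alternative run, but its sign was not stable. It ran from -0.28 to 0.09 with each library left out and from -0.40 to 0.06 with the correction as well, it was 0.18 with array weights (19 of 32 genes above 0), and it was -0.15 in TPM, where the median of all genes moved to -0.08. The number of antiviral genes passing as higher was 0, and it became 1 at a filter of 5 FPKM (Isg20), 1 with quantile scaling (Herc6), 1 without the mean trend (Herc6), 1 in voom on fragments (Herc6) and 9 with array weights. It ran from 0 to 3 with each library left out, and the number passing as lower ran from 0 to 1. With the length and GC correction these ran from 0 to 0 and from 0 to 1, where Ifi27l2a passed as lower without wild-type replicate 2. Over all genes, 667 were higher and 937 lower. The counts were 0 and 0 with no filter (4543 of 24310 at an unadjusted p under 0.05 in limma), 251 and 710 in TPM, 2690 and 2764 with array weights and 82 and 116 with the length and GC correction. They ran from 6 to 1340 higher and from 1 to 1465 lower with each library left out, and from 2 to 161 and from 3 to 371 with the correction as well (156 and 159 without knockout replicate 3, 12 and 7 without wild-type replicate 1). Deviations of same-numbered libraries had correlations of -0.185, 0.268 and -0.368. Those of differently numbered libraries ran from -0.395 to 0.421. The labels do not say what a shared number means, and 3 libraries per group cannot show whether it stands for a shared batch. With the replicate block 313 genes were higher and 509 lower, with 0 antiviral genes passing and a median of -0.05, and with the block and the correction 0 and 0 (2642 at an unadjusted p under 0.05 in limma). The cause was not tested. Depth limits Oasl1, Mx2 and the other low genes, of which 10 had under 100 fragments in some library.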
